A study of Mus musculus with 13 samples.

Results

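The genes described here are 10 genes of the arterial branch of Notch signalling, measured by RNA-sequencing in mice with deletion of Hmox2. They were chosen by name: the receptors Notch1 and Notch4, the ligands Dll4, Jag1 and Jag2, the target genes Hey1 and Hey2, and the arterial genes Efnb2, Sox17 and Gja5. They are 10 of the 36109 genes that could be assigned from the deposited transcript tables, and all 10 passed the filter on low counts in both tissues. Estimated counts were summed over the transcripts of each gene.

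Notch receptors are cut by ADAM proteases and then by gamma-secretase when a ligand on a neighbouring cell binds them, and the released intracellular part joins the DNA-binding protein RBPJ and switches on genes of the Hes and Hey families. In the endothelium this pathway sets arterial against venous identity: Sox17 acts upstream of it, Dll4 and Jag1 are its main arterial ligands, and Efnb2 and Gja5 are classical markers of arterial endothelial cells (ECs). Jag1 and Notch3 also connect the endothelium with the smooth muscle of the arterial wall.

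The Hmox2-/- mice lack heme oxygenase 2 in all cells and were studied as a model of sleep apnea, with their wildtype Hmox2+/+ littermates as controls. RNA of aortic ECs was collected by flushing TRI Reagent through the lumen of the aorta, so that the cells were not sorted, giving 3 libraries labelled Hmox2+/+ (EC WT 1 to 3) and 3 labelled Hmox2-/- (EC KO 1 to 3). Frozen, pulverized whole hearts gave 4 libraries labelled Hmox2+/+ (heart WT 1 to 4) and 3 labelled Hmox2-/- (heart KO 1 to 3). The study describes heart groups of equal size and the labels mark no library as left out, so all 4 Hmox2+/+ heart libraries were used. All mice are labelled as kept in room air, and the labels give neither age nor sex. The study states that the sequenced mice were young. The labels do not tie the heart and EC libraries to single mice, so the 13 libraries were treated as independent. In bulk RNA, fewer cells of a type and less RNA per cell cannot be told apart.

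Heart WT 1 held 7268626 estimated counts and the other 12 libraries 26067147 to 31619776. Levels within a tissue are given in CPM (counts scaled to a common total, with effective library sizes from the trimmed mean of M-values, TMM). Hmox2 itself was 63.9 to 76.2 CPM in ECs of Hmox2+/+ mice and 12.6 to 14.8 CPM in ECs of Hmox2-/- mice, and 37.3 to 42.5 against 7.53 to 8.90 CPM in hearts. The Y-linked genes Ddx3y, Kdm5d, Eif2s3y and Uty set EC KO 2 and EC KO 3 apart. Ddx3y was 0.675 and 0.768 CPM in these libraries and 46.7 to 111 CPM in the other 11, on a scale over all 13 libraries. EC KO 1 was thus the only EC library of Hmox2-/- mice with the Y-linked level of the controls. In ECs the genotypes therefore partly differ in Y-linked level as well, and these differences cannot be fully told apart. The calls in ECs of the members and of the other pathway and arterial genes are also given without EC KO 2 and EC KO 3. A gene passed when its Benjamini-Hochberg adjusted p-value over all genes tested was at most 0.05 in edgeR's quasi-likelihood test. A differentially expressed gene (DEG) in the sense of the study also differed by at least 1 on the log2 scale, in either direction.

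The promoters of Hey2 and Gja5 are shown first because these were the members that passed in ECs. RefSeq promoter sequences (table of build GRCm38.p6) were found for 8 of the 10 members, and each matched GRCm39 at 1 place. They were searched on both strands for TGGGAA, the core bound by RBPJ, and for CACGTG, the E-box. The lines give the bases before the transcription start, without bases that GENCODE M39 annotates as exon, from chr10:30718829-30719029 (minus strand, 201 bases, before Hey2) and chr3:96939468-96939710 (plus strand, 243 bases, before Gja5 and within an intron of its longer transcripts). Capitals mark the RBPJ core, here on the opposite strand.
Hey2: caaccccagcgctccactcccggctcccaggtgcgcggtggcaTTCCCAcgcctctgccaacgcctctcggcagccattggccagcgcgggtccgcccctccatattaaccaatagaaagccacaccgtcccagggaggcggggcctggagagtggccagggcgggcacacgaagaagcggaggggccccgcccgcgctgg
Gja5: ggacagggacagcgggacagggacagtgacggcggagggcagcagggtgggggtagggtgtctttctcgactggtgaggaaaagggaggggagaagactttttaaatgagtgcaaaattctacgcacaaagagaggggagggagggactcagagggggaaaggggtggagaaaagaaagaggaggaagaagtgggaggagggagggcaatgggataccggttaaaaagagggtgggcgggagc

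The Hey2 promoter held the RBPJ core starting 207 bases before the RefSeq start, and another copy, not printed, ran over the start from 3 bases before it. Hey2 was the only 1 of the 8 members with the core in the 250 bases before the start, while 21.6% of all 32851 promoters of the same length held it. No member promoter held CACGTG there, against 6.02% of all promoters. A match describes these letters only.

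Gja5, a connexin of arterial gap junctions that is also made by atrial and conducting cardiomyocytes, had the highest level per transcript length in ECs. Levels between genes are compared in TPM (transcript abundance scaled to the same total in each library), which corrects for length and is not TMM-scaled. In ECs of Hmox2+/+ mice Gja5 was 89.6 ± 36.3 TPM (SD, n = 3), and its lowest library (48.9 TPM) was above the highest library of Notch1, the next in order (22.0 ± 6.12 TPM). Sox17 (21.5 ± 7.96 TPM), Efnb2 (20.5 ± 6.08 TPM), Hey2 (17.5 ± 5.25 TPM) and Jag1 (14.8 ± 5.32 TPM) followed with ranges that overlapped from each to the next. Notch4 (8.59 ± 2.55 TPM) was below all of these, and Dll4 (4.65 ± 1.86 TPM), Jag2 (2.41 ± 0.774 TPM) and Hey1 (2.25 ± 1.17 TPM) were lowest, again without a gap between neighbours. In ECs of Hmox2-/- mice Gja5 was again first (160 ± 18.2 TPM) and Hey2 moved from the fifth to the second place (30.6 ± 0.987 TPM), though its range overlapped that of Notch1.

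Hearts had another order. Jag2, a ligand with 2.41 TPM in ECs, was first in hearts of Hmox2+/+ mice with 8.80 ± 2.10 TPM (SD, n = 4) and in hearts of Hmox2-/- mice with 6.56 ± 0.419 TPM (n = 3). With all transcripts summed, its range lay above that of every other member in both groups. Jag2-201, the transcript with most of its counts, held 38.4% to 91% of its TPM. Alone, Jag2-201 overlapped Dll4-201 in Hmox2+/+ hearts (4.26 to 5.63 against 3.09 to 4.84 TPM). In Hmox2-/- hearts it lay below Gja5-201 (4.08 to 4.35 against 4.48 to 4.83 TPM). From Notch4 (4 ± 0.765 TPM) through Dll4, Notch1, Efnb2, Gja5 and Sox17 to Hey1 (2.85 ± 0.325 TPM), each member of Hmox2+/+ hearts overlapped the next. Hey2 (1.75 ± 0.415 TPM) and Jag1 (1.71 ± 0.422 TPM) were lowest. Gja5 was 3.36 ± 0.900 TPM in these hearts, in sixth place.

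**Figure D1:**
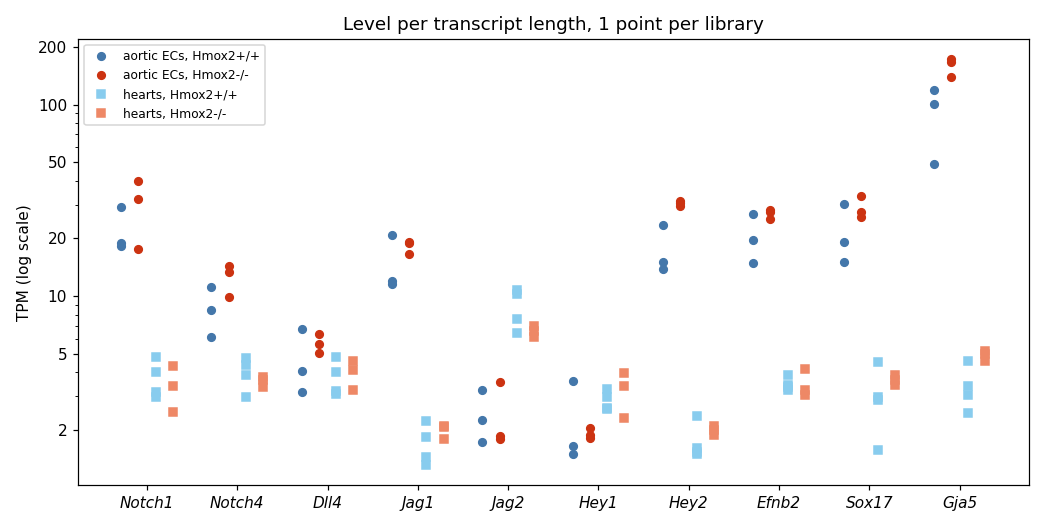
TPM of the 10 genes on a log axis, with 1 point for each library, for aortic ECs (circles) and hearts (squares) of Hmox2+/+ and Hmox2-/- mice. Gja5 stands above all other members in ECs (means 89.6 and 160 TPM) and is near the others in hearts (3.36 and 4.92 TPM). There Jag2 is highest when all transcripts of a gene are summed.

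Most of each member's counts came from 1 transcript, except for Sox17. Hey2-201 held 98.8% to 100% of the Hey2 counts in every library, Gja5-201 98.4% to 100%, Efnb2-201 99.5% to 100% and Notch1-201 99.4% to 100%. Sox17 is listed with 8 transcripts, and Sox17-201 took 10.2% to 80.3% of its counts, so that the split between Sox17 transcripts varied widely. The TPM of Notch1 in ECs rests in part on very short transcripts: Notch1-211, of 184 bases, had 7 counts and 13.7 TPM in EC KO 2. Notch1-201 alone was 14.2 ± 7.02 TPM in ECs of Hmox2+/+ mice and 14.6 ± 4.62 TPM in ECs of Hmox2-/- mice. Reads were counted without strand, so reads of Gja5 and of Gpr89, which is listed on its opposite strand, cannot be told apart where they overlap, and 16.5% of its 31-base words occur in other genes.

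In aortic ECs, the comparison of genotypes asks which genes differed with loss of Hmox2 in the RNA flushed from the aorta. This RNA was not of endothelium alone. On the scale of all 13 libraries, pan-endothelial marker genes summed to 2038 to 2943 CPM in Hmox2+/+ libraries. The sums were 5163 to 8187 CPM for adipocyte, 2646 to 5125 CPM for smooth muscle and 2854 to 4901 CPM for fibroblast markers. Hey2 and Gja5 were higher in ECs of Hmox2-/- mice. These 2 of the 10 members passed, with 0 lower, and the fitted log2 fold change was above 0 for all 10 members, with a median of 0.44 against -0.02 over all 15301 genes tested. Of all genes tested, 18.1% passed, 10% higher and 8.06% lower. Of the members, 0 were DEGs by edgeR and 0 by DESeq2, against 9.28% of all genes by edgeR, and 5 had an unadjusted p under 0.05 by either tool. Among all genes, 5402 of 15301 had such a p by edgeR and 5611 of 15292 by DESeq2. The ranges of the genotypes in CPM did not overlap for 5 members (Notch4, Hey2, Efnb2, Sox17 and Gja5, all higher), and this was so for 40.7% of all genes tested. In TPM the ranges of Notch4, Efnb2 and Sox17 overlapped, and those of Hey2 and Gja5 did not.

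The receptors were the first group. Notch1 (chromosome 2, 26347915 to 26406675, minus strand of GRCm39), the receptor needed for arterial specification, was 87.5, 103 and 174 CPM in ECs of Hmox2+/+ mice and 82.7, 151 and 163 CPM in ECs of Hmox2-/- mice. Its lowest and its highest library were of different genotypes and the groups overlapped over nearly their whole range, and the log2 fold change was 0.12 (SE 0.32, adjusted p = 0.81). Notch4 (chromosome 17, 34783220 to 34807477, plus strand), a receptor largely confined to endothelium, was 43.8, 34.7 and 52.0 CPM in Hmox2+/+ libraries and 66.9, 57.9 and 64.8 CPM in Hmox2-/- libraries. Every Hmox2-/- library was above every Hmox2+/+ library, and the difference did not pass (log2 fold change 0.54, SE 0.16, adjusted p = 0.0543). It passed in 8 of 16 alternative settings, DESeq2 among them (adjusted p = 0.0207).

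Among the ligands, Dll4 (chromosome 2, 119156170 to 119166443, plus strand), the ligand of arterial and sprouting endothelium, was 12.9, 12.8 and 17.3 CPM in ECs of Hmox2+/+ mice and 16.2, 21.6 and 20.5 CPM in ECs of Hmox2-/- mice. The lowest Hmox2-/- library, EC KO 1, fell inside the Hmox2+/+ range (log2 fold change 0.44, SE 0.17, adjusted p = 0.115). Jag1 (chromosome 2, 136923373 to 136958693, minus strand), which also signals to smooth muscle, was 65.8, 51.9 and 84.9 CPM against 76.1, 99.8 and 86.0 CPM. Here too the groups overlapped at EC KO 1, and the log2 fold change was 0.37 (SE 0.19, adjusted p = 0.21). Jag2 (chromosome 12, 112871421 to 112893437, minus strand), a ligand with many non-endothelial sources, was low, at 6.50, 6.15 and 8.19 CPM against 7.62, 4.06 and 11.2 CPM. The Hmox2-/- libraries of Jag2 held both its lowest and its highest value (log2 fold change 0.14, SE 0.35, adjusted p = 0.804).

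The 2 target genes differed from each other. Hey2 (chromosome 10, 30708350 to 30718828, minus strand), a transcriptional repressor of arterial endothelium and of ventricular muscle, was 41.0, 29.0 and 47.4 CPM in ECs of Hmox2+/+ mice and 65.7, 80.2 and 63.7 CPM in ECs of Hmox2-/- mice. All Hmox2-/- libraries lay above all Hmox2+/+ libraries, with a 1.78-fold higher fitted level (log2 fold change 0.84, SE 0.19, adjusted p = 0.0269). Hey1 (chromosome 3, 8726956 to 8732385, minus strand), its paralog, was low, at 2.70, 2.97 and 6.03 CPM against 3.40, 4.41 and 4.05 CPM. The Hmox2-/- values of Hey1 lay within the Hmox2+/+ range (log2 fold change 0.02, SE 0.35, adjusted p = 0.977).

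In CPM the arterial genes Efnb2, Sox17 and Gja5 were each higher in every Hmox2-/- library than in any Hmox2+/+ library, and of them Gja5 passed. Efnb2 (chromosome 8, 8667226 to 8711249, minus strand), the ephrin ligand that marks arterial against venous endothelium, was 103, 60.6 and 102 CPM in Hmox2+/+ libraries and 117, 138 and 106 CPM in Hmox2-/- libraries. The highest 2 of the 3 Hmox2+/+ libraries came close to the lowest Hmox2-/- library, and the log2 fold change was 0.44 (SE 0.22, adjusted p = 0.185). Sox17 (chromosome 1, 4561151 to 4567784, minus strand), a transcription factor of arterial endothelium, was 22.6, 23.9 and 38.7 CPM against 49.1, 44.3 and 40.3 CPM. EC WT 3, the highest control, came near EC KO 3 (log2 fold change 0.65, SE 0.21, adjusted p = 0.0721). Gja5 (chromosome 3, 96812009 to 96984732, plus strand) was 147, 230 and 253 CPM in ECs of Hmox2+/+ mice and 336, 514 and 406 CPM in ECs of Hmox2-/- mice. The lowest Hmox2-/- library lay well above the highest control, and the fitted level was 1.99-fold higher (log2 fold change 0.995, SE 0.25, adjusted p = 0.0327). This was just under the DEG threshold of 1.

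**Figure D2:**
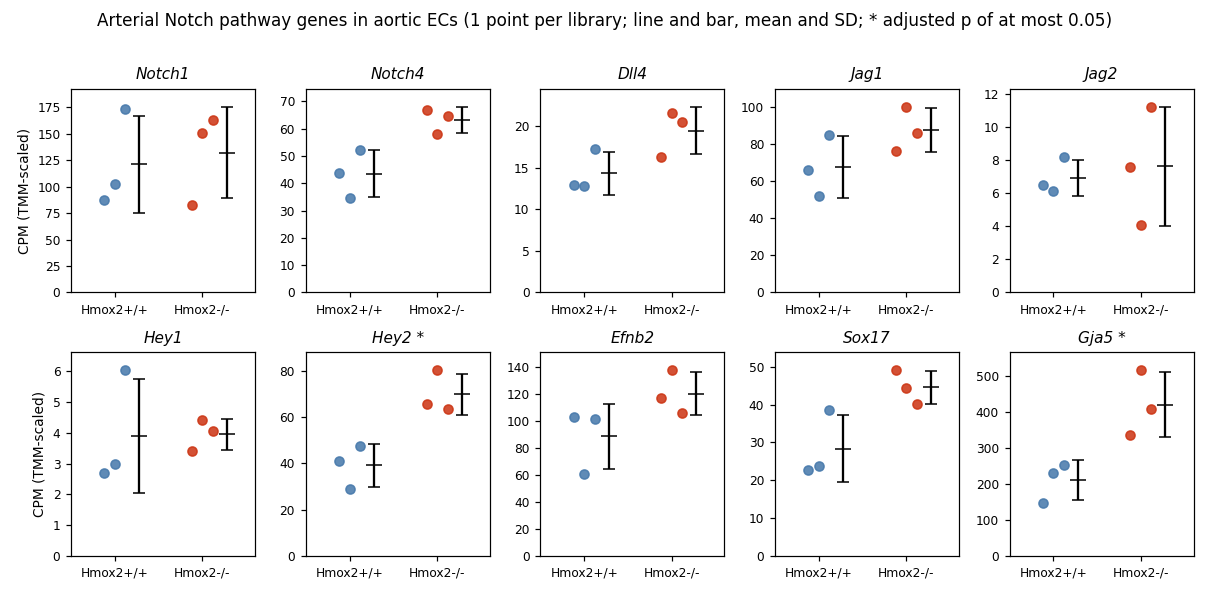
CPM of each of the 10 genes in aortic ECs, with 1 point for each library, the Hmox2+/+ libraries in blue and the Hmox2-/- libraries in red, and the mean with its SD beside them. Hey2 and Gja5 carry an asterisk (adjusted p = 0.0269 and 0.0327), and in 5 panels the red points lie above all blue points.

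The calls of Hey2 and Gja5 depended on single libraries. Hey2 no longer passed without EC WT 1 or without any 1 of the Hmox2-/- libraries, with adjusted p from 0.0166 to 0.0863 over the 6 libraries left out in turn and a log2 fold change from 0.66 to 0.99. Gja5 no longer passed without EC WT 1, EC WT 2, EC KO 2 or EC KO 3 (adjusted p from 0.0274 to 0.0984, log2 fold change from 0.79 to 1.15). The number of members passing was 0 without EC WT 1, without EC KO 2 or without EC KO 3, where edgeR gave an unadjusted p under 0.05 for 3, 4 and 4 members. In the same fits 8.74%, 6.57% and 4.07% of all genes passed. An unadjusted p under 0.05 was found there for 4686 of 15785, 4375 of 15870 and 4140 of 15679 genes. One member passed without EC WT 2 (Hey2) or without EC KO 1 (Gja5), where 10.6% and 10% of all genes passed. The number of members passing rose to 5 without EC WT 3, the control with the highest level of every member except Efnb2. In that fit 22.9% of all genes passed, against 18.1% with all libraries. Without both EC KO 2 and EC KO 3, the libraries low in Y-linked genes, 0 members passed in edgeR and 1 had an unadjusted p under 0.05. EC KO 1 alone against the 3 controls gave a log2 fold change of 0.75 for Hey2 (adjusted p = 0.314), 0.68 for Gja5 (adjusted p = 0.403), 0.79 for Sox17 and 0.63 for Notch4, and values below 0 for Notch1 (-0.55) and Hey1 (-0.20). In that fit only 0.299% of all genes passed, and the lone library was assumed to vary like the controls.

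Markers of other cell types moved with genotype in the same EC libraries. The pan-endothelial list of 14 genes (Pecam1, Cdh5, Tie1, Nos3 and others) had 7 genes higher and 1 lower (Kdr). Its summed level was 2038 to 2943 CPM in ECs of Hmox2+/+ mice and 3610 to 4216 CPM in ECs of Hmox2-/- mice, on the scale of all 13 libraries. Of its 14 genes, 12 had a fold change above 0. Their median log2 fold change was 0.60, against 0.44 for the 10 members. The smooth muscle list fell in 4 of its 9 genes, from a sum of 2646 to 5125 CPM to a sum of 850 to 2819 CPM. The cardiomyocyte list fell in 13 of 14 genes, from 120 to 429 CPM to 9.93 to 12.6 CPM, and its genes were above 0 in at least 1 library of each EC group. Fibroblast genes were higher in 3 of 8, lymphatic endothelial genes in 3 of 5 and leukocyte genes in 3 of 9, while 1 of 5 pericyte genes and 1 of 6 adipocyte genes fell and 0 of 5 erythroid genes passed. EC KO 1 alone had a pan-endothelial sum of 3610 CPM and a cardiomyocyte sum of 9.93 CPM, outside the Hmox2+/+ ranges, and a smooth muscle sum of 2819 CPM, inside it. The part of these lists in the members' values was not tested beyond the scaling that follows.

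Set against the summed pan-endothelial level of the same library, no member stood clear above its controls in ECs of Hmox2-/- mice. Gja5 was 5.45% to 7.80% of that sum in Hmox2+/+ libraries and 6.92% to 9.05% in Hmox2-/- libraries, and Hey2 was 0.981% to 1.52% against 1.21% to 1.41%. The ranges overlapped for both genes and for 6 of the 10 members in all. Notch1, Dll4, Jag1 and Hey1 were lower in every Hmox2-/- library on this scale, and Dll4, for example, was 0.432% to 0.478% against 0.334% to 0.390%. With libraries scaled to this sum, an alternative added after the data were seen, 0 members passed in edgeR, 1 had an unadjusted p under 0.05, and the log2 fold changes of Notch1, Notch4, Dll4, Jag1, Jag2, Hey1, Efnb2 and Sox17 turned negative. In that fit 60.4% of all genes passed. The median over all genes moved to -0.773, and all 10 members were above that median, from Hey1 (-0.67) to Gja5 (0.26). The pan-endothelial list holds genes that themselves passed, so this scaling changes the reference and gives no level per cell. In ECs the sum also rests largely on Pecam1. This gene was 970 to 1491 CPM of 2038 to 2943 CPM in Hmox2+/+ ECs. In Hmox2-/- ECs it was 2025 to 2307 CPM of 3610 to 4216 CPM. In Hmox2+/+ hearts it was 106 to 121 CPM of 852 to 1004 CPM. Shares of the sum without Pecam1 were not tested.

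**Figure D3:**
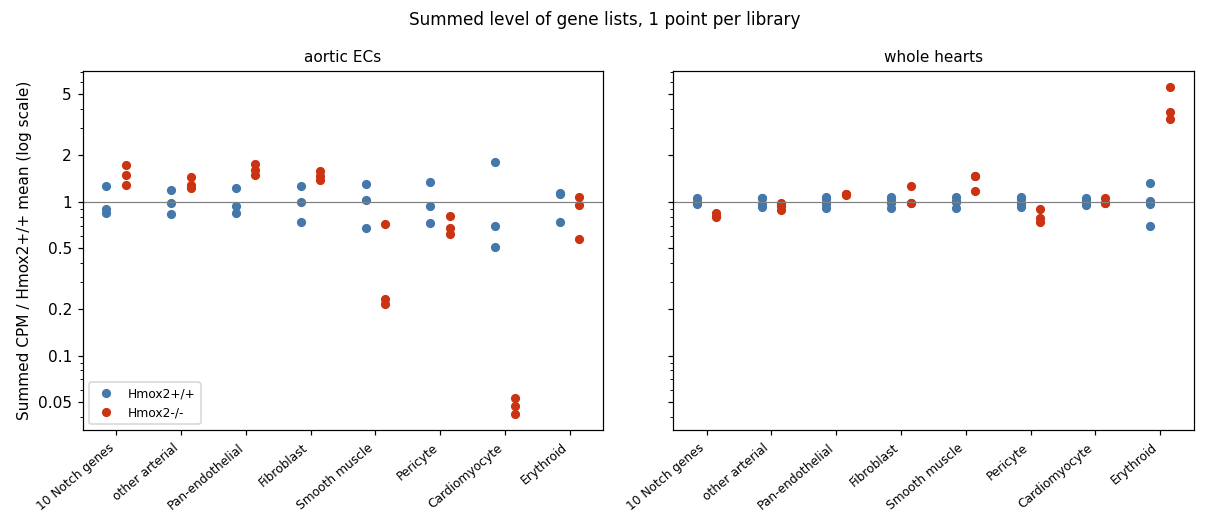
Summed CPM of 8 gene lists in each library, divided by the mean of the Hmox2+/+ libraries of the same tissue, on a log axis, for aortic ECs (left) and hearts (right). In ECs the sums of the 10 Notch genes and of the pan-endothelial genes are higher in every Hmox2-/- library. That of the cardiomyocyte genes is lower, and the smooth muscle sums overlap at EC KO 1. The sum of the 10 genes in ECs is 403 to 596 CPM against 611 to 828 CPM. Gja5 alone gives 111 to 193 CPM and 250 to 382 CPM of it. In hearts the sum of the 10 genes is lower in every Hmox2-/- library.

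Beyond the members, 49 of 52 other genes of the Notch pathway were tested in ECs and 8 passed, 4 higher and 4 lower, with a median log2 fold change of 0.02. The share over all genes tested in ECs was 18.1%, with 10% higher and 8.06% lower. Adam10, the protease that makes the first cut, was 83.4, 96.7 and 123 CPM in ECs of Hmox2+/+ mice and 146, 160 and 167 CPM in ECs of Hmox2-/- mice (log2 fold change 0.64, SE 0.16, adjusted p = 0.033). Rbpj, the DNA-binding partner of the cut receptor, was higher as well (0.54, adjusted p = 0.0318), as were Lfng, a glycosyltransferase that tunes receptors towards Dll ligands (0.72, adjusted p = 0.0485), and Poglut1, which modifies the receptor during its synthesis (0.40, adjusted p = 0.0463). Among the genes that fell, Notch3, the receptor of vascular smooth muscle and pericytes, was 21.4, 19.4 and 20.5 CPM against 6.55, 4.56 and 6.14 CPM. Notch3 changed more than any other gene of the pathway that passed (log2 fold change -1.83, SE 0.17, adjusted p = 0.00183), and its Hmox2-/- libraries were all far below its controls. The target Myc (-1.09, adjusted p = 0.0177), Dtx2 (-0.75, adjusted p = 0.028) and the ligand ubiquitin ligase Mib2 (-0.37, adjusted p = 0.047) fell too. The call of Mib2 was lost in 12 of 16 alternative settings, among them each single library left out (adjusted p from 0.0546 to 0.16), and that of Poglut1 in 10 of 16. Adam10 and Lfng each lost the call in 7 of 16 and turned direction in 1 more. Rbpj lost it in 6 and turned in 1 more, while Dtx2 lost it in 6, Myc in 3 and Notch3 in 1. Notch2, a receptor of many cell types, was 59.4, 49.5 and 58.6 CPM against 39.6, 43.8 and 44.9 CPM, and with an adjusted p of 0.059 did not pass. Hes1, a classical Notch target, was 15.1, 7.79 and 15.6 CPM against 14.1, 11.8 and 16.0 CPM (log2 fold change 0.13, adjusted p = 0.764). The count of 8 was 16 in DESeq2, where 26.4% of all genes passed. It was 30 (all lower) with pan-endothelial scaling, where 60.4% of all genes passed and their median log2 fold change was -0.773. It was 1 to 3 without EC WT 1, EC WT 2 or any 1 Hmox2-/- library, where 4.07% to 10.6% of all genes passed.

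Of the 20 other arterial endothelial genes, 4 were higher and 1 was lower in ECs of Hmox2-/- mice, and 17 had a fold change above 0 (median log2 fold change 0.49). Vegfc, a vascular growth factor gene, was 8.97, 7.25 and 10.6 CPM against 18.1, 16.3 and 16.8 CPM (log2 fold change 0.94, SE 0.17, adjusted p = 0.0125). The chemokine gene Cxcl12 (1.09, adjusted p = 0.0482) and Stmn2 (1.20, adjusted p = 0.0217) were also higher, and Igfbp3 was lower (-0.83, adjusted p = 0.0239). Sox18, a relative of Sox17, was the other gene that was higher (0.89, adjusted p = 0.0304), and is named here after its values were seen. Without both EC KO 2 and EC KO 3 none of these 5 genes passed in edgeR, with adjusted p of 0.148 for Stmn2, 0.224 for Vegfc, 0.262 for Igfbp3, 0.404 for Sox18 and 0.406 for Cxcl12. Over all 16 alternative settings Cxcl12 lost its call in 8, Stmn2, Sox18 and Igfbp3 in 6 each and Vegfc in 3. The list of 7 venous genes had 1 gene higher and 1 lower, with a median of 0.16.

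In whole hearts, 2 of the 10 members passed, Notch4 and Jag2, both lower in hearts of Hmox2-/- mice, and 9 of 10 had a fitted fold change below 0 (all but Gja5), with a median log2 fold change of -0.25 against -0.01 over the 13816 genes tested. Of all genes tested 33.4% passed, 17.2% higher and 16.2% lower. By edgeR and by DESeq2, 0 members were DEGs, against 6.71% of all genes by edgeR, and 4 members had an unadjusted p under 0.05 by each tool. Among all genes, 6190 of 13816 had such a p by edgeR and 6022 of 13813 by DESeq2. Ranges of the genotypes did not overlap for 3 members (Notch1, Notch4 and Jag2), and for 40.4% of all genes.

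Notch4 was 22.5, 24.4, 22.0 and 23.1 CPM in hearts of Hmox2+/+ mice and 16.8, 17.8 and 17.6 CPM in hearts of Hmox2-/- mice. The libraries of each genotype lay close together and well apart from the other genotype, and the log2 fold change was -0.41 (SE 0.09, adjusted p = 0.00852). Notch1 was 29.9, 35.6, 31.6 and 31.7 CPM against 21.6, 27.5 and 29.6 CPM. Heart KO 3 came within 1 CPM of heart WT 1, and the difference did not pass (log2 fold change -0.30, SE 0.12, adjusted p = 0.0789).

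Jag2, the member with the highest summed TPM in hearts, was 29.4, 29.7, 26.7 and 28.4 CPM in Hmox2+/+ libraries and 19.7, 20.3 and 18.5 CPM in Hmox2-/- libraries. It was the member with the largest difference in hearts, 1.46-fold lower (log2 fold change -0.55, SE 0.10, adjusted p = 0.0022), and the groups were far apart. Dll4 was 15.6, 16.9, 13.3 and 12.6 CPM against 15.3, 10.4 and 12.1 CPM. Jag1 was 12.6, 8.55, 9.41 and 7.40 CPM against 8.37, 7.59 and 9.28 CPM. Both of these ligands overlapped between genotypes (log2 fold changes -0.21 and -0.14, adjusted p = 0.324 and 0.572).

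Hey1 and Hey2 did not pass in hearts. Hey1 was 5.80, 7.17, 6.82 and 6.80 CPM against 7.43, 4.54 and 5.68 CPM, and Hey2 was 6.10, 3.57, 4.57 and 4.04 CPM against 4.14, 4.45 and 3.89 CPM. The Hmox2-/- values of Hey2 lay inside the control range, whose top was the shallow library heart WT 1, and without that library its log2 fold change went from -0.08 to 0.03. Efnb2 was 19.3, 15.6, 18.6 and 17.1 CPM against 13.1, 13.4 and 15.8 CPM (log2 fold change -0.31, SE 0.12, adjusted p = 0.0611), with heart KO 3 just above the lowest control. Sox17 was 3.27, 4.43, 5.52 and 7.97 CPM against 5.05, 4.39 and 3.56 CPM (adjusted p = 0.314). Gja5, at 7.73, 13.1, 10.1 and 11.3 CPM against 13.3, 11.9 and 11.04 CPM, was the member with a positive value (log2 fold change 0.16, SE 0.16, adjusted p = 0.458), and its groups overlapped too.

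Notch4 and Jag2 passed with each of the 7 heart libraries left out in turn (highest adjusted p 0.034 for Notch4 and 0.0116 for Jag2). Without heart KO 3, Notch1 and Efnb2 passed as well, 4 members in all. With an offset for gene length and GC content the log2 fold change of Notch4 was -0.15 (adjusted p = 0.217), and in 1 fit of all 13 libraries that of Jag2 was -0.55 with an adjusted p of 0.0883. Beside these results, the pan-endothelial list had 2 genes higher and 1 lower in hearts, with a summed level of 852 to 1004 CPM in Hmox2+/+ and 1045 to 1050 CPM in Hmox2-/- hearts. Pericyte genes were lower in 3 of 5 (sum 996 to 1154 CPM against 792 to 968 CPM), smooth muscle genes higher in 4 of 9 and lower in 1, and erythroid genes higher in 5 of 5 (sum 232 to 441 CPM against 1152 to 1847 CPM). Leukocyte genes were higher in 3 of 7 tested (sum 137 to 198 CPM against 233 to 389 CPM). Of 5 lymphatic endothelial genes 3 were higher and 1 lower, of 4 endocardial genes 2 were higher, of 8 fibroblast genes 1 was higher and 2 lower, and of 14 cardiomyocyte genes 6 were higher and 2 lower. The part of these lists in the members' values was not tested, except that with scaling to the pan-endothelial sum 4 members were lower (Notch1, Notch4, Jag2 and Efnb2).

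Of the other Notch pathway genes, 12 of 47 tested in hearts passed, 2 higher and 10 lower, with a median log2 fold change of -0.07. The share over all genes tested in hearts was 33.4%, with 17.2% higher and 16.2% lower. Notch2 was 22.8, 22.3, 18.1 and 18.4 CPM in Hmox2+/+ hearts and 11.3, 12.98 and 14.96 CPM in Hmox2-/- hearts (log2 fold change -0.63, SE 0.13, adjusted p = 0.00552). Notch3 was lower as well (-0.52, SE 0.12, adjusted p = 0.00879), so that 3 of the 4 Notch receptors passed in this direction. Lower values were also found for the proteases Adam17 (-0.64, adjusted p = 0.00105) and Adam10 (-0.41, adjusted p = 0.0147), and for the ligand ubiquitin ligases Mib1 (-0.88, adjusted p = 0.00379) and Mib2 (-0.43, adjusted p = 0.0075). The coactivator Maml2 (-0.46, adjusted p = 0.0395) and the regulators Dtx1 (-1.005, adjusted p = 0.0499) and Nrarp (-0.45, adjusted p = 0.0409) were near the threshold, and over 16 alternative settings they lost the call in 10, 12 and 9. The target Hes1, which kept its call in all 16, was 12.5, 8.86, 10.6 and 12.04 CPM against 7.58, 5.96 and 4.70 CPM (log2 fold change -0.84, SE 0.18, adjusted p = 0.00632), with every Hmox2-/- heart below every control. Psenen, a subunit of gamma-secretase (0.60, adjusted p = 0.00699), and Epn1, an endocytic adaptor (0.29, adjusted p = 0.0311), were higher, and the call of Epn1 was lost in 7 of 16 alternative settings. The count was 7 without heart KO 2. With the offset for length and GC content the fold changes of Adam10, Notch2, Notch3 and Maml2 shrank to -0.06, -0.11, -0.12 and -0.13, and that of Psenen to 0.05 (adjusted p = 0.667). Of the 20 other arterial genes 3 were higher, Dkk2 (1.75, adjusted p = 0.0359), Stmn2 (1.12, adjusted p = 0.00236) and Fbln5 (0.65, adjusted p = 0.00198), and 2 were lower, Unc5b (-0.54, adjusted p = 0.00949) and Epas1 (-0.42, adjusted p = 0.0199). Dkk2 lost its call in 9 of 15 alternative settings.

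Whether the genotype effect differed between tissues was tested as a tissue by genotype interaction over all 13 libraries. The effect in hearts was below that in ECs for all 10 members, with a median difference of -0.68 on the log2 scale against 0.03 over 15938 genes, and 3 members passed, in this direction in which 12.7% of all genes passed. Notch4 differed most clearly (-0.90, SE 0.18, adjusted p = 0.00264), with a higher level in every Hmox2-/- EC library and a lower level in every Hmox2-/- heart. Hey2 (-0.87, SE 0.26, adjusted p = 0.0245) and Efnb2 (-0.72, SE 0.25, adjusted p = 0.0424) also passed. Sox17 (-0.96, SE 0.35, adjusted p = 0.0573) and Gja5 (-0.79, SE 0.30, adjusted p = 0.0598) did not, although the size of their difference was like that of Notch4. Dll4 (-0.61), Jag2 (-0.64), Jag1 (-0.46), Notch1 (-0.38) and Hey1 (-0.16) had adjusted p from 0.0784 to 0.786. Notch3, which was lower in both tissues, had the opposite difference (1.35, SE 0.20, adjusted p = 0.000537).

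**Figure D4:**
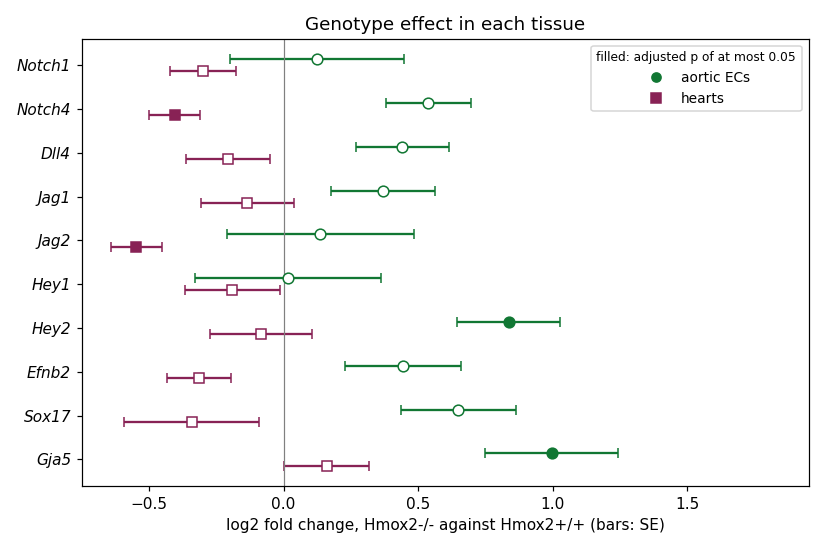
Log2 fold change of Hmox2-/- against Hmox2+/+ with its SE for each of the 10 genes, in aortic ECs (green circles) and hearts (purple squares), filled where the adjusted p was at most 0.05. The EC values lie right of 0 for every gene, from 0.02 (Hey1) to 0.995 (Gja5), and the heart values left of 0 for every gene but Gja5.

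Notch4 kept its interaction with each of the 13 libraries left out in turn (highest adjusted p 0.00858) and without both EC KO 2 and EC KO 3 (-0.99, adjusted p = 0.0191). Without those 2 libraries Hey2 (-0.79, adjusted p = 0.141) and Efnb2 (-0.68, adjusted p = 0.166) did not pass, and Notch1 (0.29) and Hey1 (0.05) changed sign. Hey2 also failed to pass without EC KO 2 alone or heart KO 1 alone, and Efnb2 without any 1 of 8 libraries (adjusted p up to 0.105). The number passing was 6 without EC WT 3. With scaling to the pan-endothelial sum 0 members passed in edgeR and 0 had an unadjusted p under 0.05, and Notch4 was at -0.37 (adjusted p = 0.2), while the median over all genes moved to 0.575.

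Between the tissues of Hmox2+/+ mice, 9 of the 10 members differed, 3 higher and 6 lower in whole hearts than in aortic ECs, where 32.5% of the 14777 genes tested were higher and 35.4% lower. Values here are in CPM on the scale of the 7 Hmox2+/+ libraries. Gja5 showed the largest difference, at 8.87 to 15.6 CPM in hearts and 104 to 181 CPM in ECs, 11.8-fold lower (log2 fold change -3.56, SE 0.22, adjusted p = 4e-07). Hey2 (-2.44), Jag1 (-2.16), Sox17 (-1.65), Efnb2 (-1.62) and Notch1 (-1.20) were lower in hearts too, with no overlap between the tissues. The ligands did not move together: Jag2 was 31.3 to 35.3 CPM in hearts and 4.43 to 5.86 CPM in ECs, 6.72-fold higher (log2 fold change 2.75, SE 0.13, adjusted p = 6.51e-08), and Dll4 was 1.67-fold higher (0.74, SE 0.16, adjusted p = 0.00215). Hey1 was higher in hearts (1.49, SE 0.29, adjusted p = 0.00105) where its paralog Hey2 was lower. Notch4 was 25.8 to 29.0 CPM in hearts and 25.0 to 37.2 CPM in ECs and did not pass (-0.21, SE 0.13, adjusted p = 0.196). Libraries of both tissues held several cell types. On the scale of all 13 libraries, the pan-endothelial sum was 852 to 1004 CPM in Hmox2+/+ hearts and 2038 to 2943 CPM in ECs. In ECs the adipocyte sum was 5163 to 8187 CPM (260 to 348 CPM in hearts), the smooth muscle sum 2646 to 5125 CPM (1933 to 2281 CPM) and the fibroblast sum 2854 to 4901 CPM (753 to 884 CPM). Their part in the differences between tissues was not tested.

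Over all 13 libraries, the levels of Jag1 and Efnb2 were the most alike among the members, with a root mean square difference of 0.276 between their log2 CPM, each centred on its own mean. Jag1 and Hey2 followed (0.315), and Jag2 and Gja5 were the least alike (3.29). Among all 15928 genes kept, the gene nearest to Hey2 was Clec14a, a lectin of endothelial cells (0.178), and the next was Npr1 (0.208). The nearest to Gja5 was Pkn3 (0.175), to Notch4 Armcx3 (0.117), to Dll4 Ushbp1 (0.132), to Jag1 Elmo1 (0.189) and to Efnb2 Foxp2 (0.170). For Sox17 it was Klf10 (0.233) and then Gata2 (0.256), for Jag2 Papln (0.261) and then Robo4 (0.279), for Hey1 Zfp346 (0.248) and for Notch1 Pkd1 (0.161). These libraries differ mostly by tissue, so a small difference describes mainly a like ratio between ECs and hearts.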

How the data were processed

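RNA-seq libraries of aortic ECs (3 Hmox2+/+, 3 Hmox2-/-) and hearts (4 and 3) were analysed. The authors quantified reads with kallisto 0.44.0, and the deposited tables give estimated counts and TPM for each transcript, with no filter and no pooling. The study's methods name GENCODE M32 of GRCm39, while the submitters' processing notes name mm10 and GRCh38.p13. The deposited lengths and effective lengths of transcripts were used for the length-based alternatives. Transcripts were matched by identifier to GENCODE M39 (GRCm39): 115140 of 118489 (97.2%) had a gene, and 0.755% to 1.01% of counts per library did not and were left out.

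The counts of each gene's transcripts were added, rounded to whole numbers and tested in edgeR 4.0.16 (quasi-likelihood, TMM, filterByExpr), separately within each tissue, between Hmox2+/+ tissues, and for the interaction over all 13 libraries. Replicates varied with a biological coefficient of 0.241 (ECs) and 0.149 (hearts). P-values were adjusted over all genes tested by the Benjamini-Hochberg method. The labels number the libraries and do not tie them to single mice, so p-values measure the spread between libraries.

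Named genes were the 10 members, Notch2, Notch3, Hes1, for each other list and comparison up to 3 genes per direction that passed with the largest fold changes, and the 2 genes nearest to each member. Members and gene lists were chosen with earlier results of these data known. Alternatives were DESeq2 1.42.0, upper-quartile normalization, length-scaled TPM, no filter, leaving out mitochondrial genes, an offset for length and GC content, the replicate block, 1 fit of all libraries, the DEG threshold, leaving out each library, and EC KO 2 and 3 together. Scaling to the pan-endothelial sum was added after the data were seen. The edgeR and DESeq2 steps were tested on simulated data.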

Additional observations from a re-analysis of the deposited data

Results flagged for a closer look

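The genotype effect differed between tissues, by the interaction test in edgeR with Benjamini-Hochberg adjustment, for 3 members and for Notch3. The heart effect minus the EC effect was -0.90 on the log2 scale for Notch4, -0.87 for Hey2 and -0.72 for Efnb2 (adjusted p = 0.00264, 0.0245 and 0.0424). It was 1.35 for Notch3 (adjusted p = 0.000537). In hearts of Hmox2+/+ mice, the group of 4, no library stood apart from the others for any of the 10 members.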

How the results depend on the processing

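The number of members passing in ECs, 2 as reported, was 4 in DESeq2, 5 with the offset for length and GC content, 0 at the DEG threshold, 0 without EC KO 2 and 3 and 0 with pan-endothelial scaling, and 0 to 5 with single libraries left out. In hearts (2 as reported) it was 0 at the DEG threshold, 1 with the offset, 1 in 1 fit of all 13 libraries, 4 with pan-endothelial scaling and 2 to 4 with single libraries left out. For the interaction (3 as reported) it was 0 at the DEG threshold, 5 in DESeq2, 5 with upper-quartile normalization, 1 without EC KO 2 and 3, 0 with pan-endothelial scaling and 2 to 6 with single libraries left out. The share of all genes passing moved as well. In ECs it was 18.1% as reported, 26.4% in DESeq2, 17.3% with the offset and 27.1% in the fit of all libraries. It was 60.4% there with pan-endothelial scaling and 4.07% to 22.9% with single libraries left out. In hearts it was 33.4% as reported, 25.4% with the offset, 32.4% with pan-endothelial scaling and 20.5% to 40.3% with single libraries left out. Between tissues the number of members passing was 8 to 10 under every alternative run. For the other pathway genes in ECs (8 as reported) it was 2 at the DEG threshold, 16 in DESeq2, 14 in the fit of all libraries, 0 without EC KO 2 and 3, 30 with pan-endothelial scaling and 1 to 10 with single libraries left out, and in hearts (12 as reported) it was 1 at the DEG threshold and 7 to 16. Fold changes turned with pan-endothelial scaling, added after the data were seen, in ECs for Adam10 (-0.086), Dll4 (-0.30), Efnb2 (-0.31), Hes1 (-0.61), Hey1 (-0.67), Jag1 (-0.37), Jag2 (-0.58), Lfng (-0.015), Notch1 (-0.59), Notch4 (-0.19), Poglut1 (-0.35), Rbpj (-0.21) and Sox17 (-0.052), in hearts for Gja5 (-0.0031), and for the interaction of Hey1 (0.32), Jag1 (0.067) and Notch1 (0.13). Length-scaled TPM turned Hey1 in ECs (-0.14) and its interaction (0.0095), the fit of all libraries turned Hey1 in ECs (-0.026), and the offset turned Jag1 in hearts (0.13). Without EC KO 2 and 3, Hey1 (-0.20) and Notch1 (-0.55) turned in ECs, and so did their interactions (0.050 and 0.29). With single libraries left out, values ranged from -0.13 to 0.29 for Hes1, -0.19 to 0.47 for Hey1, -0.24 to 0.44 for Jag2 and -0.066 to 0.47 for Notch1 in ECs, from -0.18 to 0.035 for Hey2 in hearts, and from -0.62 to 0.052 for the interaction of Hey1. The causes were not tested. Over 160 alternative values for members in ECs, 117 kept direction and call, as did 151 of 160 in hearts, 138 of 140 between tissues and 178 of 220 for the interaction. These counts include members that had no call and stayed without one. Of the members with a call, Hey2 and Gja5 in ECs each lost it in 6 of 16. Notch4 and Jag2 in hearts each lost it in 1 of 16. With the replicate number as a block, 3 members passed in ECs, 2 in hearts, 9 between tissues and 1 in the interaction. The numbers did not pair the libraries: same-numbered libraries correlated at 0.181, 0.04 and 0.0872 in ECs and at -0.0335, 0.0772 and 0.037 in hearts. Heart WT 1, with 7268626 counts, is the least precise library.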
